A study of Mus musculus with 20 samples.

Results

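The 40 genes described here serve the unfolded protein response and the amino acid response. They were taken by symbol from a fixed list, which was chosen with earlier results of these data known. All 40 were among the 24047 genes counted by RNA-seq in organoids from the mouse stomach, that is 3-dimensional cultures of its epithelium. All 40 passed the filters on low counts, which kept 13476 genes for tests on lines and 13141 genes for tests on libraries. By role they comprised 7 stress regulators, 8 enzymes of amino acid and one-carbon synthesis, 6 amino acid transporters and tRNA synthetases, 4 sensors and factors of the endoplasmic reticulum (ER), and 15 ER chaperones and degradation factors.

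The series set organoids that carry p53, a tumour suppressor, against organoids whose Trp53 gene was knocked out, in 20 libraries from 8 lines on the BL/6 background. Wild-type (WT) lines were 300 and 1269 (non-dysplastic, 2 libraries each) and 565 and 752 (dysplastic, 3 libraries each). The p53 knockout (KO) lines were 650 (non-dysplastic, KO in vivo, 2 libraries), 1270 (non-dysplastic, KO ex vivo, 2 libraries), and 794 and 801 (dysplastic, KO in vivo, 3 libraries each). WT and KO organoids alike were grown in conditioned medium, which does not tell how the ex vivo knockout of line 1270 was made. Not given in the sources used here were the knockout allele, any Cre driver, the age of the mice and whether lines came from separate animals. Each condition rests on 1 or 2 lines, and p-values therefore measure only the spread between these lines or libraries, which may be technical.

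When unfolded proteins gather in the ER, the sensors encoded by Ern1 (IRE1), Eif2ak3 (PERK) and Atf6 are activated. IRE1 splices the Xbp1 transcript, and XBP1 and ATF6 raise chaperones, disulphide isomerases and degradation factors. PERK and the amino acid sensor GCN2 phosphorylate the same initiation factor, which slows protein synthesis but favours translation of Atf4 mRNA. The ATF4 protein then activates genes for amino acid synthesis, amino acid uptake and tRNA charging, together with regulators such as Ddit3 (CHOP) and Trib3. Gastric mucous and zymogenic cells secrete much protein and depend on this machinery. Activation of PERK, IRE1 and ATF6 and splicing of Xbp1 are not read by gene counts, which give the summed transcripts of a gene only.

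Promoter sequences are shown for members of both arms of the response, so that the sites known from each arm can be seen beside the genes whose levels follow. RefSeq promoters of assembly GRCm38.p6, covering 250 bases before to 50 bases after the start of transcription, were available for 36 of the 40 genes. The members without an entry were Slc7a5, Wars, Atf6 and Manf. The motif TGATGNAA, the composite site bound by ATF4 with a C/EBP partner, was searched on both strands. It lay in the promoters of Aars, Asns, Chac1, Herpud1, Pycr1 and Trib3, that is in 6 members, and in 3.97% of all 32851 RefSeq promoters of this length. The ER stress element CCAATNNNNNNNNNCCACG, bound by ATF6 and XBP1 with NF-Y, lay in 7 members, which were Calr, Canx, Creld2, Dnajc3, Hsp90b1, Hspa5 and Pdia6, and in 0.119% of all promoters. The shorter ER stress element ATTGGNCCACG lay in Herpud1 alone among the members and in 0.0365% of all promoters. The XBP1 element TGACGTGG was found in 0 members and in 0.676% of all promoters. None of the 7 windows below holds a match of another of these motifs. A match is a run of letters and not a measured binding site.

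The ATF4 composite site is in capitals in the next 4 windows of 100 bases, each printed 5′ to 3′ along the strand of its gene. The Trib3 and Chac1 matches lie on the opposite strand and so read as the reverse complement. Counted from the start of transcription, the matches span 15 to 22 in Trib3, -193 to -186 in Chac1, -103 to -96 in Pycr1 and -23 to -16 in Asns.
Trib3, chr2:152344039-152344138, minus strand: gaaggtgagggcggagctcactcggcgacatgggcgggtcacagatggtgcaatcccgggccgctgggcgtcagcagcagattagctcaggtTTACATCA
Chac1, chr2:119351002-119351101, plus strand: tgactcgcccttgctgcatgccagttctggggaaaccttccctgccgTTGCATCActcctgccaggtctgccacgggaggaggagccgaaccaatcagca
Pycr1, chr11:120643799-120643898, minus strand: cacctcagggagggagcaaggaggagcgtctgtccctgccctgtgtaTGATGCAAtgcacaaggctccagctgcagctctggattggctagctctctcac
Asns, chr6:7693210-7693309, minus strand: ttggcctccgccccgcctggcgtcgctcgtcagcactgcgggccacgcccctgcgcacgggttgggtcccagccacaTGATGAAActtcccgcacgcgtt

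The ER stress element is in capitals in 3 chaperone promoters, at -65 to -47 in Hspa5, -98 to -80 in Pdia6 and -145 to -127 in Canx. Hspa5 and Pdia6 differed in line 794 below and Canx did not pass the test there, which is why these 3 are shown.
Hspa5, chr2:34771984-34772083, plus strand: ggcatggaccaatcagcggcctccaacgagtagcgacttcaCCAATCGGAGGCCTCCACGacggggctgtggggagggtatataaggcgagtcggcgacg
Pdia6, chr12:17266450-17266549, plus strand: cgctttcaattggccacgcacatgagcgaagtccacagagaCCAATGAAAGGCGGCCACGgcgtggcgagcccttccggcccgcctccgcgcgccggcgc
Canx, chr11:50325760-50325859, minus strand: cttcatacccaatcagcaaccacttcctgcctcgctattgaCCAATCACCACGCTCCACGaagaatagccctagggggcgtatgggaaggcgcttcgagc

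Library totals ran from 5669521 to 16323270 counts. Trp53 lay between 112 and 161 CPM (counts-per-million, with library totals scaled by the trimmed mean of M-values, TMM) in the 4 WT lines and between 4.99 and 26.9 CPM in the 4 KO lines, so that the genotypes did not overlap. By Xist and Ddx3y, lines 300 and 650 were male and the other 6 female, so all dysplastic lines were female. Summed epithelial markers (Epcam, Krt8, Krt18, Cdh1) were at 6763 to 8994 CPM in every line and summed fibroblast markers at 5.10 to 34.5 CPM. The parietal cell markers Atp4a and Atp4b together were near 0, at 0.675 to 1.87 CPM. In bulk RNA, fewer cells of a type and less RNA per cell cannot be told apart. In 6 libraries, which were library 2 of lines 300 and 650 and library 3 of lines 565, 752, 794 and 801, short transcripts were over-represented relative to long ones. The slope of log2 CPM on log2 transcript length was -0.053 to 0.203 in these 6 and 0.318 to 0.481 in the other 14. Line 794 holds 1 of these 6, its library 3, and fold changes of that line that turn sign, lose or gain the call, or move by over 1.5 times without it are given both ways.

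The largest departure among the 40 genes belonged to a single line. In line 794, a dysplastic KO line, 18 of 40 genes were higher than the mean of the other 7 lines and 0 were lower (edgeR's quasi-likelihood test on 20 libraries, adjusted over all genes tested). Over all genes the same test called 13.5% higher and 8.99% lower. The 18 comprised 6 of 7 stress regulators, 4 of 8 synthesis enzymes, 3 of 6 transporters and synthetases, 1 of 4 ER sensors and factors, and 4 of 15 chaperones and degradation factors. The median log2 fold change of the 40 genes was 0.46, against 0.02 over all genes tested, and was 1.27 for the regulators. The libraries of this line are the units of the test, so its p-values speak of line 794 and not of dysplasia or p53.

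**Figure D1:**
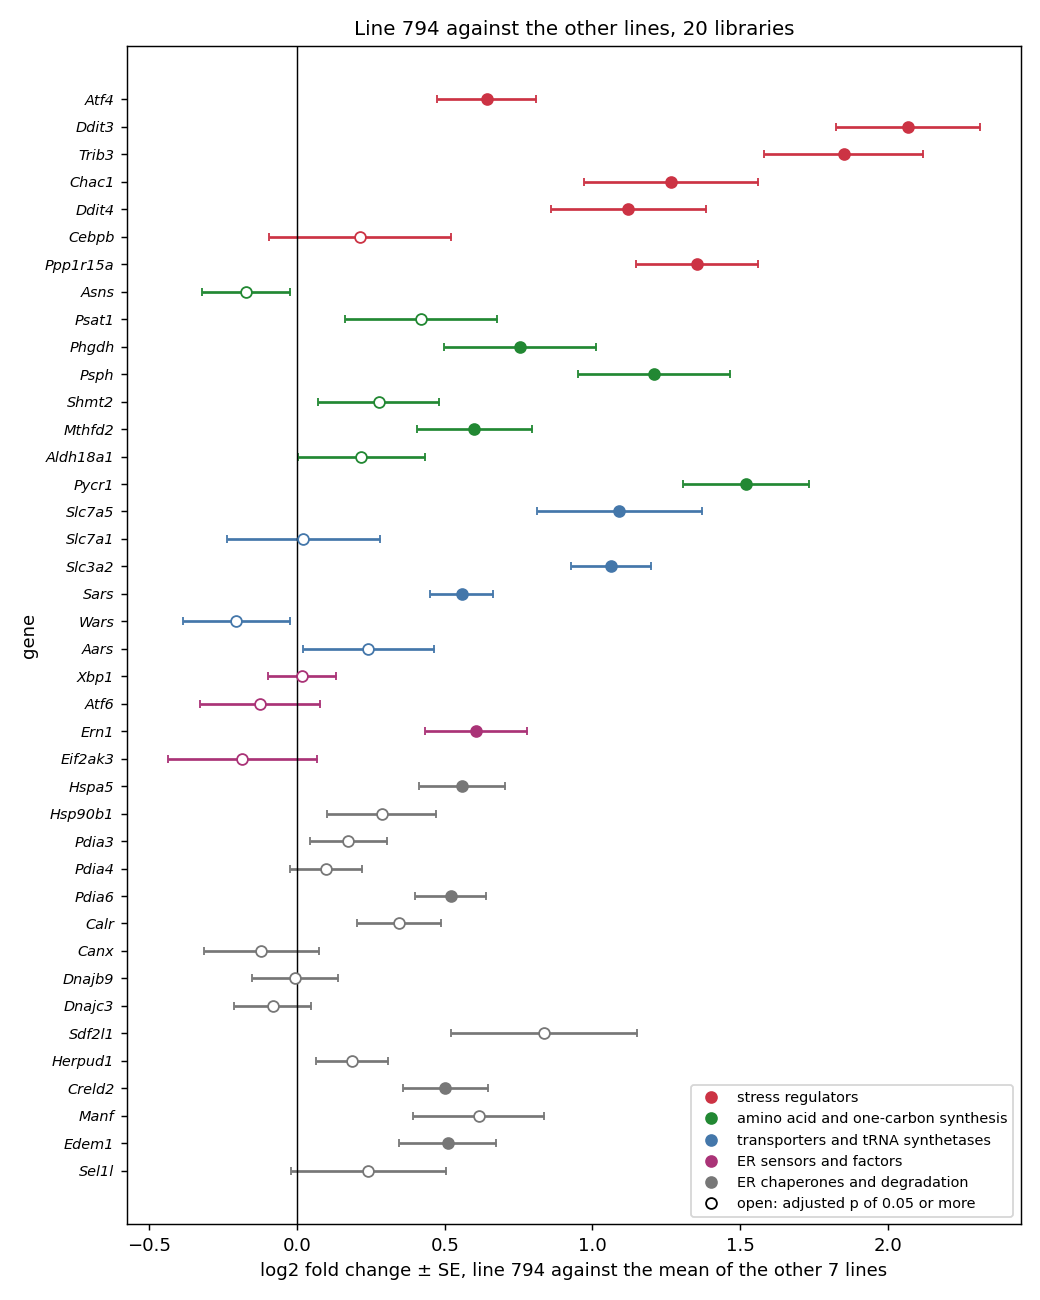
Log2 fold change (horizontal axis) of each of the 40 genes (vertical axis) in line 794 against the mean of the other 7 lines, from edgeR on 20 libraries. Points are estimates, bars are 1 SE on each side, colours are roles, and filled points mark the 18 genes with an adjusted p under 0.05; Ddit3 lies farthest right at 2.07.

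Among the stress regulators, Ddit3 stood out most. Ddit3 encodes CHOP, a transcription factor known for promoting cell death under prolonged ER stress. It measured 91.7, 78.9 and 98.5 CPM in the 3 libraries of line 794. In the other 17 libraries it ran from 11.8 to 47.6 CPM with a median of 18.2. All 3 libraries of line 794 were thus above all 17 others. Per line, Ddit3 was at 88.5 CPM in line 794 and at 21.7 ± 5.09 CPM (SD, n = 7 lines) elsewhere. The fitted log2 fold change was 2.07 ± 0.24 (SE; adjusted p of 1.04e-05, edgeR).

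Trib3 encodes a pseudokinase that dampens ATF4 and CHOP signalling. It measured 145, 109 and 83.2 CPM in line 794 and 14.5 to 71.5 CPM (median 30.0) in the other 17 libraries. The groups did not overlap, although library 2 of line 1270 came close to them. The log2 fold change was 1.85 ± 0.27 (SE; adjusted p of 8.54e-05, edgeR). Chac1, which encodes a glutathione-degrading enzyme, measured 72.0, 59.7 and 50.3 CPM in line 794. In the other libraries Chac1 lay between 7.61 and 45.1 CPM, again with no overlap, and its log2 fold change was 1.27 ± 0.29 (SE; adjusted p of 0.0047, edgeR).

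Ppp1r15a encodes GADD34, the phosphatase subunit that restores protein synthesis after stress. It measured 122 and 96.3 CPM in libraries 1 and 2 of line 794 and 46.9 CPM in library 3. The other 17 libraries ran from 23.8 to 47.0 CPM, so library 3 of line 794 fell within their range. The log2 fold change was 1.35 ± 0.21 (SE; adjusted p of 0.000135, edgeR). Library 3 is among the 6 libraries with the shifted length profile, and without it the log2 fold change was 1.66.

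Atf4 itself, at 561, 487 and 660 CPM, was above all 17 other libraries, which ran from 253 to 483 CPM. Its log2 fold change of 0.64 ± 0.17 (SE; adjusted p of 0.00998, edgeR) was smaller than those of Ddit3 and Trib3, and without library 3 it was 0.52 ± 0.19 (SE; adjusted p of 0.0792, edgeR). Ddit4, which encodes the mTORC1 inhibitor REDD1, measured 567, 457 and 465 CPM, against 54.5 to 337 CPM in the other libraries. This gave a log2 fold change of 1.12 ± 0.26 (SE; adjusted p of 0.00476, edgeR). Cebpb, a partner of ATF4 and CHOP, did not pass the test, with 24.4, 22.7 and 7.30 CPM in line 794 and 9.24 to 24.3 CPM elsewhere, at a log2 fold change of 0.21 with library 3 and 0.58 without.

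In all, 9 of 40 genes had all 3 libraries of line 794 above all 17 others, against 4.80% of all genes. They were Atf4, Ddit3, Trib3, Chac1, Ddit4, Pycr1, Slc3a2, Sars and Pdia6. The reverse order held for 0 of 40 members and 3.13% of all genes.

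**Figure D2:**
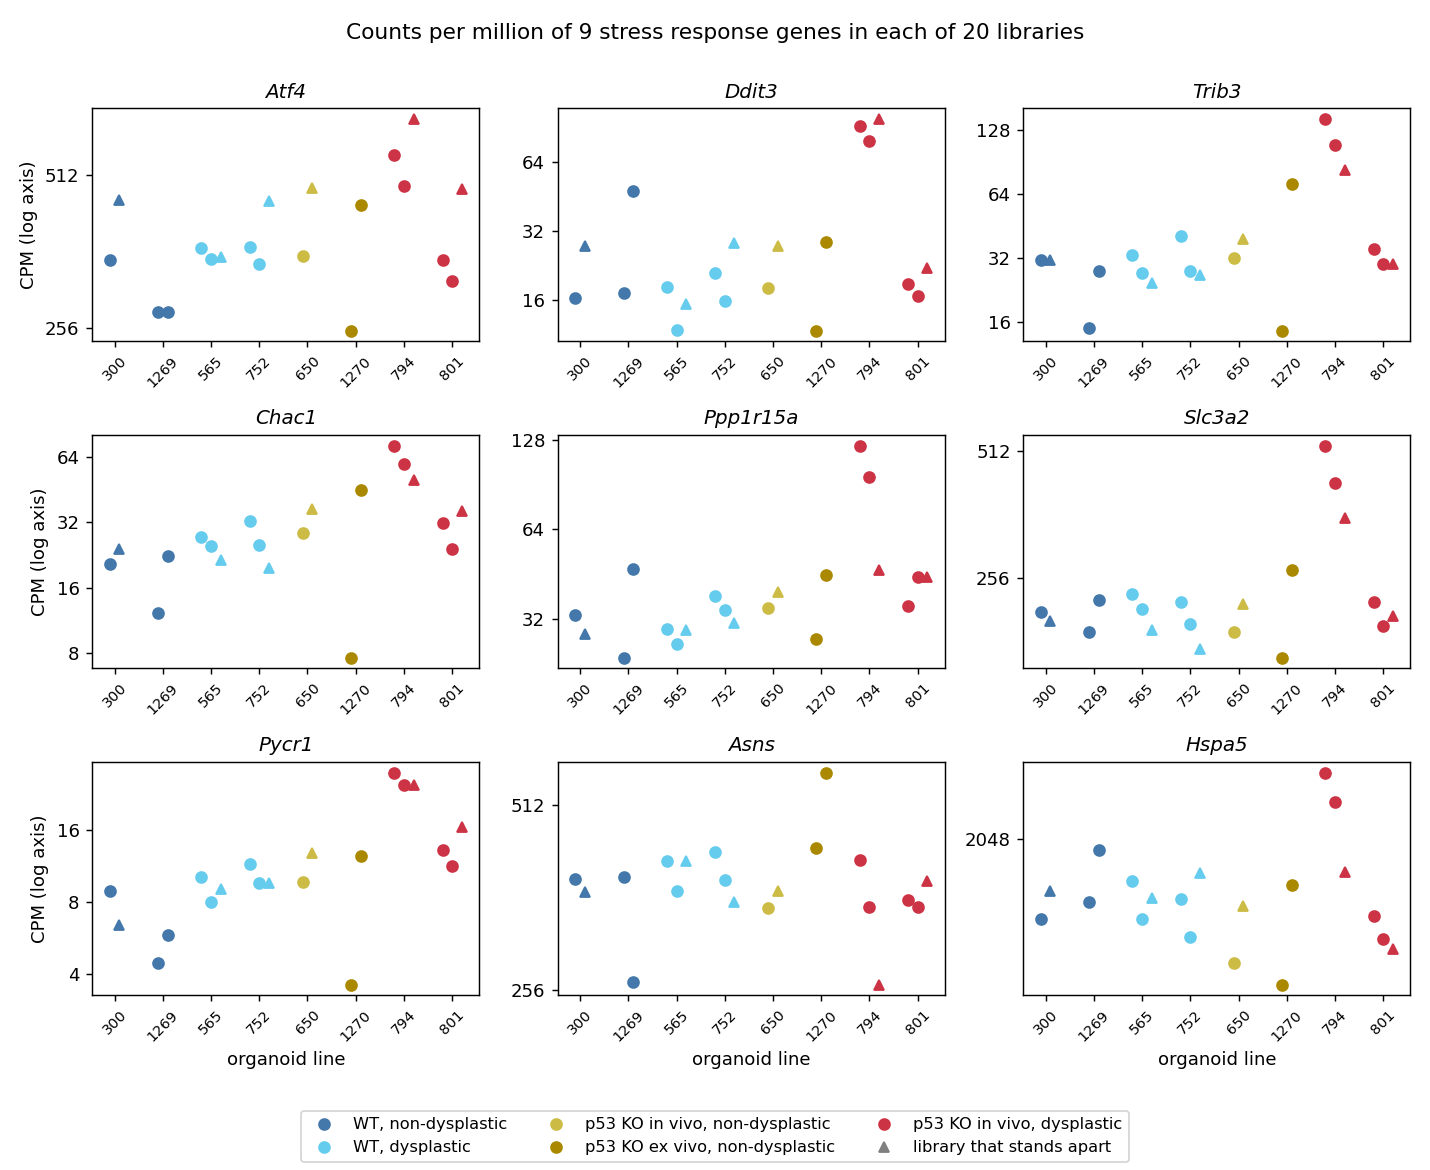
CPM on a log axis (vertical) of 9 of the genes in each of the 20 libraries, by organoid line (horizontal axis). Colours mark the 5 groups, and triangles mark the 6 libraries with a shifted length profile; line 794 lies above the other lines in most panels, but not for Asns, and the 2 libraries of line 1270 are far apart.

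The enzymes of amino acid synthesis were not uniform. Pycr1 encodes a mitochondrial enzyme that completes proline synthesis. It measured 27.6, 24.6 and 24.6 CPM in line 794, above the other 17 libraries at 3.62 to 16.4 CPM. Its log2 fold change was 1.52 ± 0.21 (SE; adjusted p of 6.31e-05, edgeR). Aldh18a1, which acts before Pycr1 in the same pathway, had a log2 fold change of 0.22 ± 0.22 (SE) and did not pass the test; without library 3 it was at 0.41 ± 0.24 (SE), also not called.

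Serine synthesis proceeds through Phgdh, Psat1 and Psph. Psph measured 77.3, 59.7 and 130.2 CPM in line 794 and 22.2 to 72.0 CPM in the other libraries, an overlap made by library 2. The fitted log2 fold change was 1.21 ± 0.26 (SE; adjusted p of 0.0025, edgeR). Without library 3, Psph was at 0.83 ± 0.29 (SE; adjusted p of 0.0584, edgeR) and no longer called. Phgdh, at 189, 122.5 and 369 CPM against 72.9 to 214 CPM, had a log2 fold change of 0.75 ± 0.26 (SE; adjusted p of 0.0457, edgeR). Library 3 carried most of that difference, and without it the log2 fold change of Phgdh was 0.21 ± 0.26 (SE), not called. Phgdh was also lost with the replicate number as a block (adjusted p of 0.0629, edgeR). Psat1, at 344, 270.0 and 536 CPM, did not pass it, with log2 fold changes of 0.42 with library 3 and 0.10 without.

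The mitochondrial folate enzyme Mthfd2 measured 159, 131 and 115 CPM in line 794, against 56.6 to 152 CPM elsewhere. This gave a log2 fold change of 0.60 ± 0.20 (SE; adjusted p of 0.0368, edgeR), while Shmt2, which feeds the same folate pathway, was at 0.28 ± 0.20 (SE) and not called. Asns, the asparagine synthetase gene whose promoter carries the same motif as those of Trib3 and Chac1, measured 417, 349 and 261 CPM in line 794. The other libraries of Asns ran from 264 to 578 CPM. Its log2 fold change was -0.17 ± 0.15 (SE; adjusted p of 0.462, edgeR), or -0.01 without library 3, and the highest Asns level of the 8 lines was 517 CPM in line 1270.

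Slc3a2 and Slc7a5 encode the heavy and light chains of the LAT1 transporter for large neutral amino acids. Slc3a2 measured 525, 429.5 and 355 CPM in line 794, above all other libraries at 166 to 267 CPM. Across the other 7 lines it was nearly constant at 211 ± 8.18 CPM (SD, n = 7 lines). The fitted log2 fold change was 1.06 ± 0.14 (SE; adjusted p of 2.42e-05, edgeR). Slc7a5 measured 526, 457 and 246 CPM, against 95.8 to 333 CPM, with library 3 inside the range of the others. This gave a log2 fold change of 1.09 ± 0.28 (SE; adjusted p of 0.00947, edgeR).

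The cationic amino acid transporter gene Slc7a1 did not follow, with a log2 fold change of 0.02 ± 0.26 (SE), or 0.19 ± 0.30 without library 3. Of the tRNA synthetase genes, Sars (seryl) measured 402, 368 and 336 CPM in line 794 and 184 to 295 CPM elsewhere, with no overlap. Its log2 fold change was 0.56 ± 0.11 (SE; adjusted p of 0.00109, edgeR). Aars (alanyl) and Wars (tryptophanyl) did not pass the test, at 0.24 ± 0.22 and -0.21 ± 0.18 (SE) on the log2 scale, and at 0.50 ± 0.22 and 0.04 ± 0.16 (SE) without library 3. Wars instead separated 2 WT lines, 300 at 498 CPM and 565 at 518 CPM, from the other 6 at 282 to 348 CPM; neither line passed the test for this gene.

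On the ER side, the sensor gene Ern1 measured 35.3, 47.5 and 30.9 CPM in line 794 and 18.7 to 31.3 CPM elsewhere. The fitted log2 fold change was 0.61 ± 0.17 (SE; adjusted p of 0.018, edgeR). Xbp1, Atf6 and Eif2ak3 did not pass the test, with log2 fold changes of 0.02 ± 0.11, -0.13 ± 0.20 and -0.19 ± 0.25 (SE). Without library 3 these were 0.16 ± 0.11, 0.05 ± 0.22 and 0.15 ± 0.22 (SE), so that the signs of Atf6 and Eif2ak3 rest on that library, in which Eif2ak3 was at 34.1 CPM against 78.3 and 102.5 CPM in the other 2. Counts per gene do not separate spliced from unspliced Xbp1.

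Of the 15 chaperone and degradation genes, 4 passed. Hspa5 encodes BiP, the main chaperone of the ER lumen. It measured 2650.5, 2361 and 1798 CPM in line 794, against 1156 to 1959 CPM in the other libraries. Libraries 1 and 2 were above all others and library 3 was within their range. This gave a log2 fold change of 0.56 ± 0.15 (SE; adjusted p of 0.0104, edgeR).

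The disulphide isomerase gene Pdia6 was steadier. It measured 781, 766 and 767.5 CPM in line 794 and 440.0 to 658 CPM elsewhere, and its log2 fold change was 0.52 ± 0.12 (SE; adjusted p of 0.00448, edgeR). Creld2, at 108.0, 81.3 and 100.3 CPM, overlapped with the other libraries (47.8 to 111 CPM), and its log2 fold change was 0.50 ± 0.14 (SE; adjusted p of 0.0181, edgeR). Edem1, which helps extract misfolded glycoproteins, measured 174, 183 and 97.2 CPM against 72.0 to 141 CPM and had a log2 fold change of 0.51 ± 0.17 (SE; adjusted p of 0.036, edgeR). Without library 3, Creld2 was at 0.47 ± 0.17 (SE; adjusted p of 0.0722, edgeR) and not called. The 11 that did not pass ranged from -0.12 (Canx) to 0.84 (Sdf2l1), and both ends rest on library 3. Canx measured 676, 685 and 349 CPM in libraries 1 to 3, and its log2 fold change without library 3 was 0.13 ± 0.18 (SE). Sdf2l1 measured 109, 73.5 and 200.4 CPM, and without library 3 it was at 0.35 ± 0.35 (SE). Those closest to the threshold were Manf at 0.61 ± 0.22 and Sdf2l1 at 0.84 ± 0.31 (SE), with adjusted p of 0.059 and 0.0695 (edgeR). Manf was at 0.40 ± 0.26 (SE) without library 3, and was called with the replicate number as a block (adjusted p of 0.0447, edgeR). Without library 3, Hsp90b1 was called at 0.55 ± 0.16 (SE; adjusted p of 0.0279, edgeR), against 0.29 with it. Sel1l and Dnajc3 moved from 0.24 to 0.55 and from -0.08 to 0.08 without being called. The others were Pdia3, Pdia4, Calr, Dnajb9 and Herpud1; of these, the log2 fold change of Pdia4 moved from 0.10 to 0.22 and that of Dnajb9 from -0.01 to -0.05 without library 3.

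Per line, line 794 had the highest level of the 8 lines for 25 of 40 genes, against 22.0% of all genes. Ddit3 was 4.08-fold the mean of the other 7 lines, Trib3 3.58-fold, Pycr1 2.76-fold, Ppp1r15a 2.68-fold and Chac1 2.39-fold. Psph, Ddit4, Slc7a5 and Slc3a2 lay between 2.12- and 2.17-fold, and Hspa5 was 1.497-fold.

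**Figure D3:**
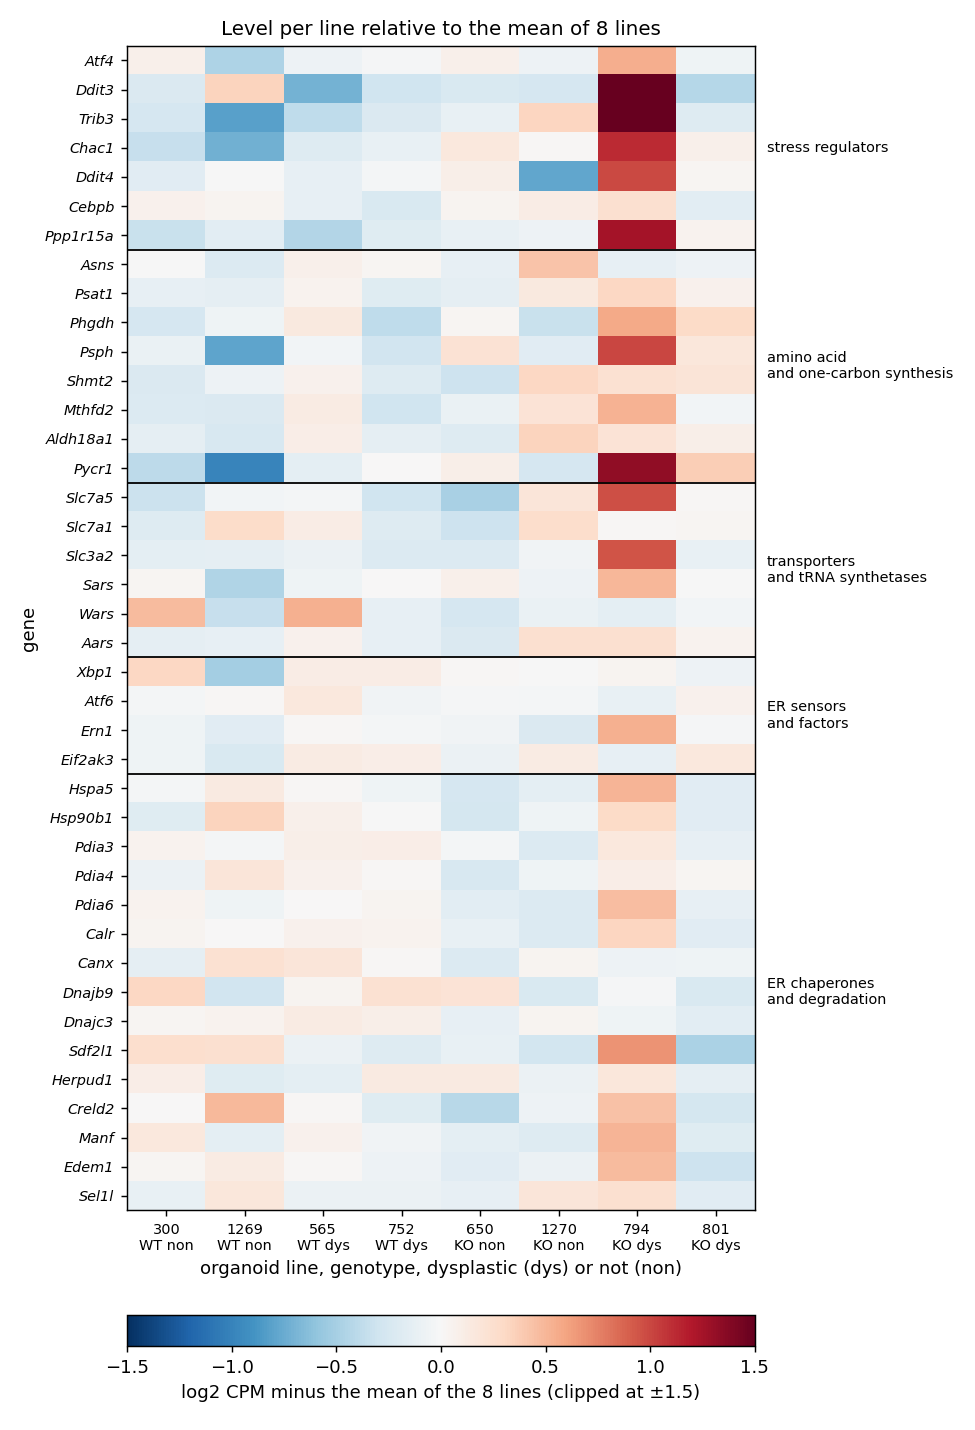
Log2 CPM of the 40 genes (rows, grouped by role) in each of the 8 lines (columns), as the difference from the mean of the 8 lines, with colour clipped at 1.5 in either direction. Line 794 shows the deepest red, chiefly among the stress regulators, with Pycr1, Psph, Slc7a5 and Slc3a2 in the groups below. Line 1269 is lowest for 13 of the 40 genes, against 17.1% of all genes.

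The number of members called in line 794 varied with the libraries used. Leaving out library 1 of line 794 left 11 of the 18 called, without Phgdh, Mthfd2, Slc7a5, Ern1, Hspa5, Creld2 and Edem1. Leaving out library 2 left 13 of them among 15 called, without Mthfd2, Slc7a5, Ern1, Hspa5 and Edem1. Leaving out library 3 left 14 of them among 15, without Atf4, Phgdh, Psph and Creld2. Without the 6 libraries with a shifted length profile, 22 members were called higher, of which 16 were among the 18, Phgdh and Mthfd2 being lost. With the replicate number as a block 17 of the 18 remained among 18 called, Phgdh being lost and Manf gained. Without library 1 of every line, 5 members remained, which were Ddit3, Trib3, Chac1, Pycr1 and Slc3a2. None was called lower under any of these. The share of all genes called in the same fits is not given here. These counts alone therefore do not tell whether the changes are particular to the members.

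Other genes of the 2 pathways were examined as wider lists. Of 37 further ATF4-linked genes, 14 were higher in line 794 and 1, Shmt1, was lower. The tRNA synthetase genes of this list (Gars, Nars, Mars, Iars, Tars, Lars, Vars, Yars, Cars and Eprs) were not called, nor were Atf5 and Sesn2. Vegfa, which encodes an angiogenic growth factor, was at 407 CPM in line 794 and 91.8 to 217 CPM in the other 7 lines (log2 fold change 1.59 ± 0.17 (SE), adjusted p of 4.65e-06, edgeR). The stress-induced cofactor gene Nupr1 was at 467 CPM against 94.5 to 247 CPM (adjusted p of 2.75e-05, edgeR). The cystine transporter gene Slc7a11 was at 270.2 CPM against 59.2 to 98.7 CPM (adjusted p of 0.00684, edgeR). Of 36 further ER genes, 3 were higher and 0 lower. Ero1l, the ER oxidase gene, was at 2177 CPM against 394 to 947 CPM, Dnajc10 at 1350.4 CPM against 488 to 759 CPM, and Ssr3 at 808 CPM against 543 to 674 CPM. Both lists are to be read against the 13.5% of all genes called higher in this line. Their values and calls without library 3 of line 794 are not given here.

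Markers of surface mucous (pit) cells were also high in line 794. The 4 pit markers (Muc5ac, Tff1, Gkn1, Gkn2) summed to 4609 CPM there and to 39.5 to 1066 CPM in the other lines. Tff1 was below 1 CPM in every line. Within line 794 the sum was 2767, 4360.4 and 7929 CPM in libraries 1, 2 and 3, and members did not share 1 order. Members with the opposite order included Trib3, Slc3a2, Chac1, Ppp1r15a, Mthfd2, Slc7a5, Sars, Hspa5, Cebpb and Asns. Those highest in library 3 included Atf4, Psat1, Ddit3, Psph, Phgdh, Sdf2l1 and Manf. The last 5 of these were also higher in all 6 libraries with the shifted length profile than in the other libraries of their lines. Summed mucous neck markers were at 1619 CPM, against 242 to 1446 CPM elsewhere. Of these, Aqp5 (769 CPM) and Muc6 (258 CPM) were highest in line 794. Tff2, at 591 CPM, was below lines 300 (1123 CPM), 650 (1005 CPM) and 752 (828 CPM). Summed chief cell markers were at 56.0 CPM, within the 48.8 to 1000 CPM of the other lines. Gif (2.82 CPM) and Bhlha15 (3.37 CPM) were lowest in line 794, but Pgc and Pga5 were not. Summed proliferation markers were at 787 CPM, within the 462 to 1392 CPM of the other lines. The part of these cell types in the result was not tested.

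Across genotype and dysplasia, taken over lines, no member passed the test. The signs of the KO against WT differences varied with role, being positive for regulators and synthesis enzymes and mostly negative for chaperones. Of 7 stress regulators 7 had a positive log2 fold change of KO against WT, and of 8 synthesis enzymes 8, but of 15 chaperone and degradation genes 3. Over all genes tested 48.5% were positive. The regulators' count rests on line 794: without it Ddit3 and Ddit4 turned negative (-0.14 and -0.05), leaving 5 of 7, with 8 of 8 synthesis enzymes, 0 of 15 chaperone and degradation genes and 45.5% of all genes positive. Line 1270, a KO line that remains, joins unlike libraries. For the 8 synthesis enzymes its library 2 was from 1.33-fold (Asns) to 3.43-fold (Pycr1) its library 1. Sign counts without that library are not given here. The sign for all 40 genes was positive in 24, and in 19 without line 794. With line 794, median log2 fold changes were 0.62, 0.25 and -0.07 for these roles, 0.07 over all 40 genes and -0.01 over all genes tested. edgeR's quasi-likelihood test on line sums called 0 of 40 genes and 0% of all genes. Trp53 itself was thus not called, at 112 to 161 CPM in WT lines and 4.99 to 26.9 CPM in KO lines. A lack of calls in this test therefore does not show a lack of difference.

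Trib3 was at 31.5, 21.3, 28.7 and 32.1 CPM in WT lines 300, 1269, 565 and 752. In KO lines 650, 1270, 794 and 801 it was at 34.5, 46.8, 116 and 32.6 CPM. Every KO line was thus above every WT line, but lines 801 and 752 were nearly level, and line 1270 joined libraries at 14.5 and 71.5 CPM, the former below every WT line. The log2 fold change was 0.96 ± 0.38 (SE), and 0.36 without line 794. Chac1 was at 22.5, 17.3, 25.0 and 26.4 CPM in the WT lines and 31.7, 28.8, 62.0 and 30.1 CPM in the KO lines, in the same order of lines. Its log2 fold change was 0.72 ± 0.24 (SE), and 0.42 without line 794. Here too library 1 of line 1270, at 7.61 CPM, was below every WT line and library 2, at 45.1 CPM, above. Without library 2 of line 1270, neither gene had every KO line above every WT line, and the log2 fold changes were 0.60 for Trib3 and 0.42 for Chac1 (edgeR, neither called). Ppp1r15a was at 31.2, 35.3, 29.0 and 34.7 CPM in WT and 36.4, 37.4, 93.8 and 40.9 CPM in KO lines. The fitted log2 fold change was 0.62 ± 0.25 (SE), and 0.26 without line 794. For Ppp1r15a as well, library 1 of line 1270 (27.4 CPM) was below every WT line.

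These 3 were the members with all KO lines above all WT lines, against 0.920% of all genes, and their adjusted p in edgeR's test was 0.999988. No member (0 of 40) had all KO lines below all WT lines, against 1.46% of all genes. At an unadjusted p under 0.05, edgeR gave 5 of 40, which were Trib3, Chac1, Ppp1r15a, Psph and Pycr1, and 4.03% of all genes. DESeq2 called 0 of 40 and 0.543% of all genes, and limma-voom, with a shared correlation within each line, 0 of 40 and 0.497%. The largest negative value was that of Wars, at -0.31 ± 0.23 (SE).

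For dysplastic against non-dysplastic lines, 35 of 40 genes had a positive log2 fold change, with a median of 0.13, against 46.2% positive and a median of -0.02 over all genes. Without line 794, 25 of 40 were positive, with a median of 0.03, against 43.8% of all genes. Ddit3, Trib3 and Edem1 were among those that turned negative. Pycr1 had the largest, at 0.80 ± 0.26 (SE; adjusted p of 0.718, edgeR), or 0.52 ± 0.23 (SE) without line 794. Per line Pycr1 was at 7.77, 5.16, 10.9 and 8.61 CPM in the non-dysplastic lines 300, 1269, 650 and 1270, and at 9.24, 10.3, 25.7 and 13.2 CPM in the dysplastic lines 565, 752, 794 and 801. Lines 650 and 565 overlapped. Ern1 alone among the members had all dysplastic lines above all non-dysplastic ones, against 1.74% of all genes. It was at 27.1, 26.1, 38.5 and 26.4 CPM in the dysplastic lines and at 25.5, 23.6, 25.6 and 23.0 CPM in the others, a log2 fold change of 0.27 ± 0.15 (SE; adjusted p of 0.963, edgeR). Without line 794 it was 0.12. No member (0 of 40) had the reverse order, against 1.31% of all genes.

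In this comparison edgeR called 0 of 40 and 0% of all genes, and at an unadjusted p under 0.05 it gave Pycr1, that is 1 of 40, and 5.91% of all genes. DESeq2 called 0 of 40 and 1.11% of all genes, and limma-voom 0 of 40 and 1.09%. In a fit with the sex of the line as a covariate the count remained 0.

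The narrower comparisons shared lines with these and with each other, so that they are given side by side only. For KO against WT in non-dysplastic lines, Trib3 had a log2 fold change of 0.62 ± 0.54 and Creld2 of -0.51 ± 0.29 (SE). edgeR called 0 of 40 (0% of genes), and at an unadjusted p under 0.05 0 of 40 (1.91%), DESeq2 0 (0%) and limma-voom 0 (0.0395%). For KO against WT in dysplastic lines, Ddit3 was at 1.57 ± 0.64, Trib3 at 1.30 ± 0.55 and Ppp1r15a at 1.08 ± 0.36 (SE). Without line 794, which leaves line 801 alone in this group, they were at 0.05, 0.10 and 0.36. edgeR called 0 of 40 (0%), and 4 at an unadjusted p under 0.05 (Ddit3, Chac1, Ppp1r15a and Pycr1, against 4.36% of genes), DESeq2 0 (0.600%) and limma-voom 0 (0.797%).

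For dysplasia in WT lines, Pycr1 was at 0.59 ± 0.37 and Ddit3 at -0.57 ± 0.63 (SE). edgeR called 0 of 40 (0%), and 0 at an unadjusted p under 0.05 (1.16%), DESeq2 0 (0.0220%) and limma-voom 0 (0%). For dysplasia in KO lines, Ddit3 was at 1.32 ± 0.64, Pycr1 at 1.00 ± 0.37 and Asns at -0.28 ± 0.21 (SE). Without line 794, Ddit3 turned to -0.19 ± 0.31, and Pycr1 was at 0.44 ± 0.35 and Asns at -0.26 ± 0.28 (SE). edgeR called 0 of 40 (0%), and 3 at an unadjusted p under 0.05 (Ppp1r15a, Phgdh and Pycr1, against 7.54%), DESeq2 0 (1.50%) and limma-voom 0 (1.89%).

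The interaction asks whether the KO difference itself depends on dysplasia. Ddit3 had the largest interaction term, 1.896 ± 0.895 (SE), and all 7 stress regulators had a positive one, against 55.4% of all genes. Without line 794 the term of Ddit3 was 0.38 ± 0.40 (SE) and 3 of 7 regulators had a positive one, against 52.3% of all genes. edgeR called 0 of 40 (0%), and 0 at an unadjusted p under 0.05 (1.79%), DESeq2 0 (0%) and limma-voom 0 (0%). Line 801, the other dysplastic KO line, had Ddit3 at 18.8 CPM and Trib3 at 32.6 CPM, so that for both genes line 801 was closer to every WT line than to line 794.

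The lines differed in 8 of 40 genes beyond the spread of their libraries (edgeR, F test on 7 degrees of freedom), against 23.8% of all genes. These were Ddit3, Trib3, Ppp1r15a, Psph, Pycr1, Slc3a2, Sars and Creld2. The widest range over lines was that of Ddit3, whose highest line was 5.71-fold its lowest, then Trib3 at 5.47-fold and Pycr1 at 4.98-fold. Without line 794 these ratios were 2.07, 2.20 and 2.56. The narrowest were Atf6 at 1.20-fold, Dnajc3 at 1.21-fold and Herpud1 at 1.28-fold.

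Of the other lines, line 1269 had 3 members called lower and 0 higher, against 2.81% and 4.57% of all genes. Pycr1 measured 4.44 and 5.84 CPM in its 2 libraries, with a log2 fold change of -1.13 ± 0.32 (SE; adjusted p of 0.0434, edgeR). Sars measured 184 and 198 CPM (-0.53 ± 0.14 (SE), adjusted p of 0.0314, edgeR). Xbp1 measured 178 and 177 CPM (-0.59 ± 0.14 (SE), adjusted p of 0.0205, edgeR), which were the lowest Xbp1 values of the 20 libraries. With either library of line 1269 left out, 0 of these 3 were called.

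No member was called in the remaining 6 lines. The share of all genes called higher and lower there was 0.875% and 1.09% in line 300, 0.731% and 0.0761% in line 565, and 1.17% and 0.0685% in line 752. It was 0.373% and 0.0761% in line 650, 2.22% and 5.44% in line 1270, and 7.06% and 1.45% in line 801.

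Within line 1270, the ex vivo KO, the 2 libraries differed widely in these genes. Library 2 was at least 1.5-fold above library 1 for 19 of 40 genes, against 11.9% of all genes, and the reverse held for 0 of 40 and 13.8%. Chac1 was at 7.61 CPM in library 1 and 45.1 CPM in library 2, a ratio of 5.92. Trib3 was at 14.5 and 71.5 CPM (4.94), Ddit4 at 54.5 and 217 CPM (3.98) and Pycr1 at 3.62 and 12.4 CPM (3.43). All 7 stress regulators and 7 of the 8 synthesis enzymes passed 1.5-fold, Asns being at 1.33. Only 2 of 15 chaperone and degradation genes did, Sdf2l1 and Manf, both at 1.56 to 1.57. With 1 library on each side the ratios have no replicate check.

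Library 1 of line 1270 held the lowest Chac1, Trib3, Ddit3, Atf4 and Pycr1 values of all 20 libraries. The line sum hid this, since line 1270 lay near the other lines for Chac1 (28.8 CPM) and Ddit3 (21.3 CPM). Pit markers went the other way within this line, at 2405 CPM in library 1 and 21.9 CPM in library 2, as did summed chief cell markers at 1870.3 and 320.0 CPM. Summed proliferation markers were at 774 and 1288 CPM. High pit markers thus accompanied high stress regulators in line 794 and low ones in library 1 of line 1270; their part was not tested.

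In line 1269 the difference between libraries was narrower. Library 2 exceeded library 1 by 1.5-fold or more for 5 of 40 genes, all stress regulators, against 14.9% of all genes. The share of the 40 genes was thus no higher than that of all genes. They were Ddit3 (17.2 and 47.6 CPM, a ratio of 2.77), Ddit4 (1.99), Ppp1r15a (1.98), Trib3 (1.86) and Chac1 (1.83). The reverse held for Cebpb alone, 1 of 40, against 8.99% of all genes. Atf4 was level at 275 CPM in both. Summed markers also differed between libraries 1 and 2 of line 1269. Pit markers were at 120 and 69.3 CPM, chief cell markers at 67.7 and 27.1 CPM, and proliferation markers at 1670 and 1057 CPM. Their part was not tested. Neither line 1269 nor line 1270 holds any of the 6 libraries with a shifted length profile.

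**Figure D4:**
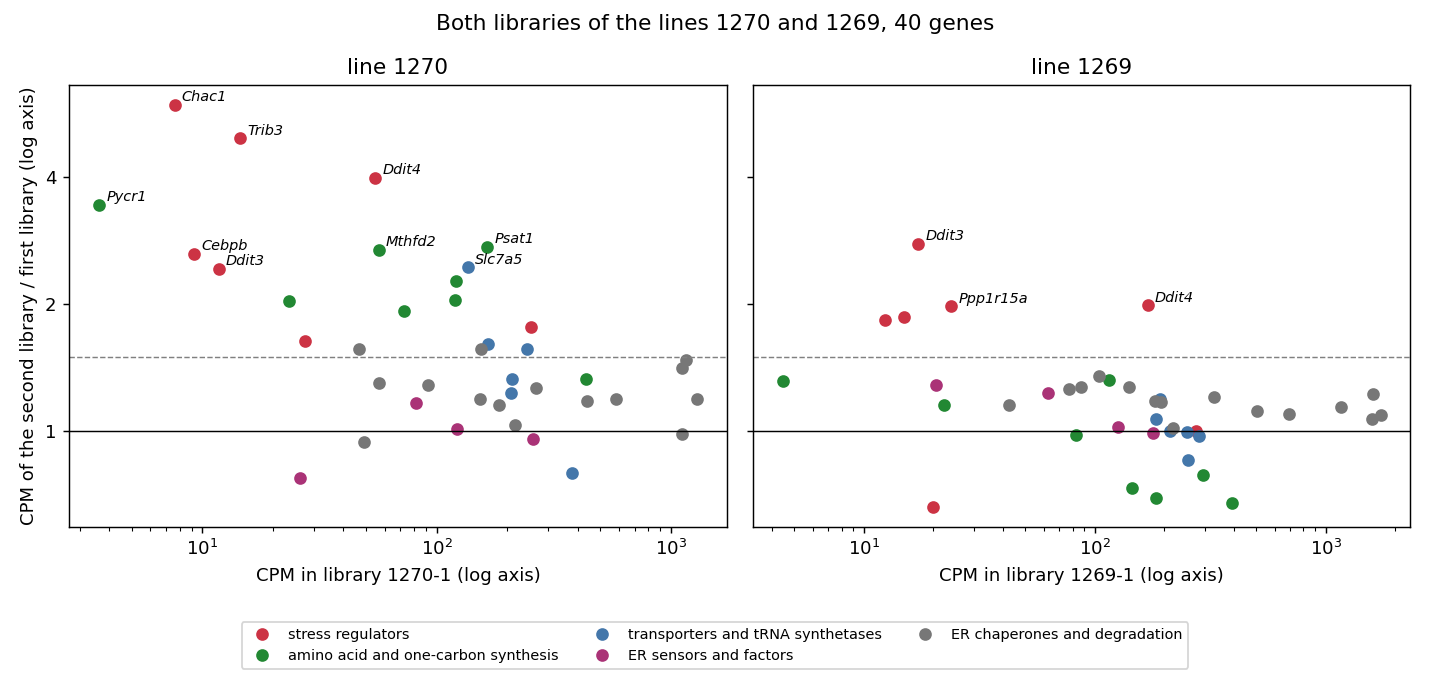
CPM in library 2 divided by CPM in library 1 (vertical, log axis) against CPM in library 1 (horizontal, log axis) for the 40 genes, in line 1270 (left) and line 1269 (right). The dashed line is at 1.5-fold and colours are roles; in line 1270 the regulators and synthesis enzymes reach 5.92-fold while most chaperones stay under the dashed line.

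Some members differed in the same direction in all 6 libraries with a shifted length profile. Against the other libraries of their own line, 13 of 40 genes were lower in all 6, against 25.6% of all genes, and 6 were higher in all 6, against 25.7%. The 13 were Aldh18a1, Slc7a5, Slc7a1, Wars, Aars, Atf6, Ern1, Eif2ak3, Hsp90b1, Canx, Dnajc3, Edem1 and Sel1l, whose longest annotated transcripts ran from 2878 to 7246 bases. The 6 were Ddit3, Phgdh, Psph, Sdf2l1, Creld2 and Manf, with 969 to 2877 bases. Sdf2l1, an ER cochaperone gene of 1108 bases, had the highest median difference of log2 CPM, 1.03, and Slc7a5 the lowest, -0.83. Trib3 and Chac1 had medians of -0.21 and -0.03 with no common direction. Library 3 of line 794 shared these directions, with Phgdh, Psph, Sdf2l1 and Manf high and Sel1l, Edem1 and Eif2ak3 low against its sister libraries. Whether the length profile sets these values was not tested.

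**Figure D5:**
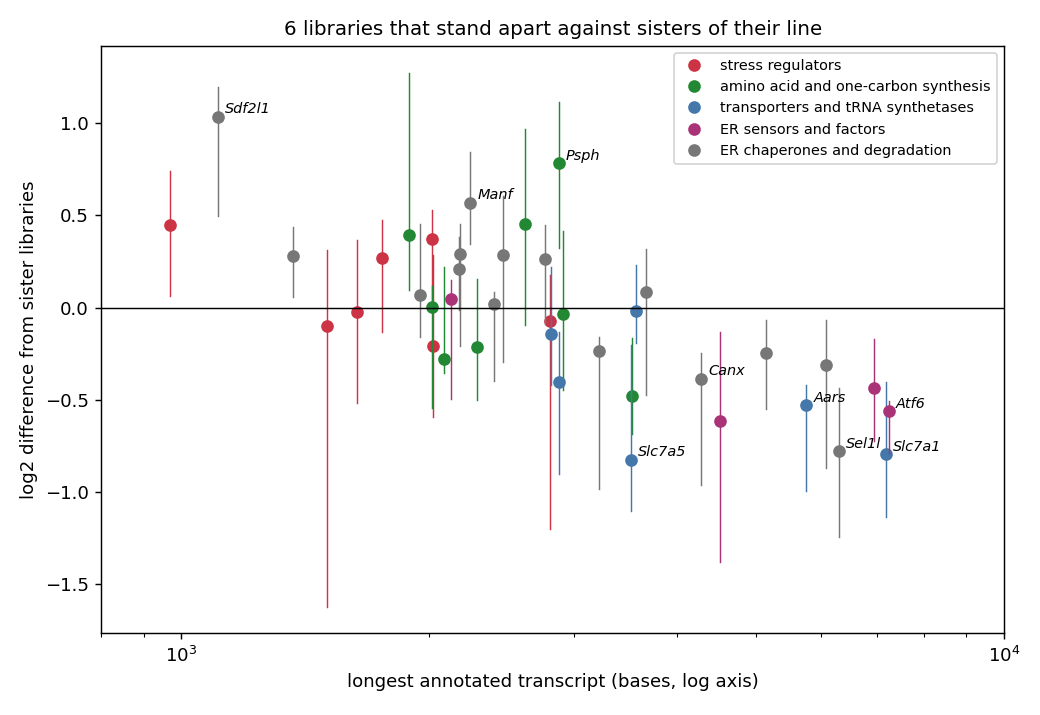
Log2 CPM of each of the 40 genes in the 6 libraries with a shifted length profile minus the mean of the other libraries of the same line (vertical), against the longest annotated transcript in bases (horizontal, log axis). Points are medians of the 6 differences, vertical lines their full range and colours roles; the medians of the 9 longest members lie below 0, with Sel1l at -0.78.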

How the data were processed

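Purified total RNA went into mRNA sequencing libraries, per the labels' protocols. STAR 2.5, bcl2fastq and the mouse build mm9 are named in the submitters' processing notes. Not given in the sources used here were annotation, gene counter and use of strand. The deposited values are raw counts per gene symbol, with no normalization by the authors. Libraries of a line share every label but the number and were summed per line (8 lines).

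Counts were filtered with filterByExpr, scaled by TMM and tested in R 4.3.3 with edgeR 4.0.16 (robust quasi-likelihood, Benjamini-Hochberg over all genes, threshold 0.05). Line sums had 1 mean per combination of genotype and dysplasia (4 residual degrees of freedom), and the 20 libraries had 1 mean per line (12). Fold changes are log2, and CPM values are on TMM-scaled totals. DESeq2 1.42.0 and limma 3.58.1 were alternatives, as were other scaling, no filter, a replicate block, leaving out libraries or lines, 5 group means and sex. The fits were tested on simulated counts that held the spread between libraries of a line but no spread between lines. That simulation therefore cannot check the fits on line sums at the spread between lines seen here.

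The 6 shifted libraries had a slope of log2 CPM on log2 longest transcript (GENCODE M21, 12553 genes) under 0.25, a limit set after the slopes were seen. Fits without these libraries as single-line tests, and with 1 library of line 794, 1269 or 1270 left out, were chosen after seeing the data. The 40 genes, their roles, the wider lists and the rule for named genes (non-overlapping, largest, called, widest and narrowest) were chosen with earlier results of these data known. Promoters came from RefSeq GRCm38.p6 and no coordinates of that build were joined to the counts. Sex of a line was read from Xist and Ddx3y. Libraries held 5669521 to 16323270 counts, and the lowest member value was Pycr1 at 3.62 CPM in library 1 of line 1270.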

Additional observations from a re-analysis of the deposited data

Results flagged for a closer look

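In each of the 40 genes the 4 WT lines and the 4 KO lines were searched for a line far from the other 3, by Dixon's ratio at the 95% level. Of 80 such groups 12 had one, at a nominal rate of about 1 in 20. The share over all genes is not given here, so the 12 cannot be read as an excess in these genes. In 9 of the 12 it was line 794, high among the KO lines. The regulators were Ddit3 at 88.5 CPM, Trib3 at 116 CPM, Chac1 at 62.0 CPM and Ppp1r15a at 93.8 CPM. The transporter gene Slc3a2 was at 447 CPM. The chaperone-related genes were Hspa5 at 2327 CPM, Pdia6 at 770.0 CPM, Calr at 2071 CPM and Manf at 334 CPM. Calr and Manf had not passed the single-line test. Outside line 794, Asns at 517 CPM in line 1270 was far above the other KO lines. Among WT lines, Aars in line 565 at 287 CPM and Sel1l in line 1269 at 199.6 CPM stood above the rest. Genes of 1 pathway vary together, so these are not 12 separate events.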

How the results depend on the processing

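For genotype, dysplasia and their interaction, 0 members were called in all 7 comparisons under every alternative run, including the replicate block in limma-voom. For line 794, 18 members were called, and 21 with DESeq2, 19 with DESeq2 size factors, 16 with no filter, 21 with a term for the 6 shifted libraries, 22 without them and 18 with the replicate block (17 of the same, with Phgdh lost and Manf gained); leaving out libraries gave 5 to 17, and 11 without library 1 of line 794 alone. For any difference among lines, 8 became 16 with DESeq2, 19 with the term, 12 with the replicate block and 2 to 9 with libraries left out. For line 1269, 3 became 1 with no filter, 7 with the term, 5 without the 6 libraries and 0 to 3 with libraries left out. Counts of 0 became 1 in line 1270 with DESeq2 (0 to 1 with libraries left out), 1 in line 300 and 2 in line 801 with the term, and 1 in line 565 with the term or with the replicate block. For these single-line fits the share of all genes called is not given here, so the changed counts may not be particular to the members. Directions reversed as follows. Ddit3 for dysplasia in KO lines went from 1.32 to -0.19 without line 794 (-0.19 to 2.04 over lines left out), with line 801, then alone in its group, assumed to vary like the others. In line 794, 6 genes that were not called changed sign as libraries were left out: Slc7a1 (-0.10 to 0.19), Wars (-0.42 to 0.0367), Xbp1 (-0.0933 to 0.16), Atf6 (-0.29 to 0.0473), Eif2ak3 (-0.53 to 0.15) and Canx (-0.28 to 0.13). Without the 6 shifted libraries Slc7a1 was at -0.000187, Eif2ak3 at 0.0047 and Canx at 0.0297. Trib3, Chac1 and Ppp1r15a stayed uncalled for KO against WT, with a lowest adjusted p of 0.254 (edgeR, Ppp1r15a without line 801), and Ppp1r15a in line 794 was uncalled without library 1 of every line, at a log2 fold change of 0.96. Apart from the smaller sets of libraries, the cause of these shifts was not tested.

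The library numbers gave no pairing by animal or day in the labels. Deviations from line means of same-numbered libraries correlated above 0.1 in 30 of 62 pairs (median 0.0773, range -0.7686 to 0.7537), against 35 of 112 pairs with other numbers (median 0), and 11 of 20 libraries correlated best with a library of their own number. All 4 libraries numbered 3 have the shifted length profile, so the number is tied in part to that profile, but not every pair correlated and the numbers were not taken as pairs. Depth limits Pycr1, the member with the lowest CPM values, most.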
